A study of Homo sapiens with 12 samples.

Results

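p53 is a transcription factor that stops the cell cycle, promotes DNA repair or starts cell death after DNA damage and other stress. It binds DNA as a tetramer at response elements made of a pair of short half-sites, and its own ubiquitin ligase MDM2 is among the genes it switches on, which closes a feedback loop. In HEK293 cells, an embryonic kidney line transformed with adenovirus DNA, early viral proteins bind and stabilise p53 and hold down its activity as an activator, so the transcripts of its target genes are read here against that background. The genes described are 30 named p53 targets, listed by name as known targets, with no cut on their values in these libraries. They were, however, chosen with earlier results of these data known. All 30 were found among the 60483 genes of the total RNA count files, and 29 had enough reads to be tested. GDF15, a secreted stress cytokine, was the exception, with 3, 2 and 6 reads in mut and 3, 3 and 0 reads in WT.

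The comparison is between HEK293 Flp-In T-REx lines that make a FLAG-tagged, recoded DIS3L2, either wild-type (WT) or with a catalytic mutation (mut). DIS3L2 is a cytoplasmic exoribonuclease that degrades uridylated RNA. Cells of both groups carry the same type of cassette, with hairpins against the endogenous DIS3L2 message, and both received 100 ng/ml doxycycline for 3 days, so no uninduced or untreated cells enter the comparison. Each group has 3 rRNA-depleted, strand-specific total RNA libraries. The labels do not say whether the replicates were separate cultures or whether a variant is 1 clone, and the spread behind the p-values may therefore be technical.

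Levels are CPM, the reads of a gene per 1000000 gene reads of its library after TMM scaling, and a gene is called higher or lower where edgeR's quasi-likelihood test gives an adjusted p under 0.05 over all 14409 genes tested. The libraries held 8315986 to 12675042 reads in genes. DIS3L2 itself stood at 1144, 1040 and 1091 CPM in mut and at 763, 813 and 777 CPM in WT, a count that may sum transgene and endogenous transcripts and so checks the labels only in part. Of the HEK293 markers, NEFL, INA and VIM were all present and higher in mut (log2 fold changes of 0.51, 0.55 and 0.23), and NEFM was near the floor with 7 and 5 reads per group. Of 18 markers of blood, liver, muscle, endothelial, keratinocyte and fibroblast cells, 7 were at 0 in all libraries, CD3E, HBB, COL1A2, DCN, CDH5, KRT5 and KRT14. The 3 with enough reads to test were COL3A1, higher in mut on 36 against 10 reads (2.03, adjusted p = 0.0011), COL1A1, higher on 73 against 48 reads (0.83, adjusted p = 0.033, but 0.12 in DESeq2 and called in 2 of 6 fits that leave out 1 library), and ACTA2 at 0.40 (adjusted p = 0.060). The summed level of the 18 was 12.2 to 13.2 CPM in mut and 7.76 to 8.93 CPM in WT, a difference whose part in the other results was not tested. In RNA from whole cultures, fewer cells of a type and less RNA per cell cannot be told apart. Reads outside genes made up 12.3% to 13.7% of the mut and 16.6% to 19.4% of the WT libraries, and their part in the results was not tested.

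To show what a p53 binding sequence looks like at these genes, the RefSeq promoter windows (250 bases before to 50 after each start site, GRCh38.p14) were searched for the p53 half-site consensus, which reads the same on both strands. The table held windows for 25 of the 30 genes, and those of GADD45A, PHLDA3, RRM2B, TNFRSF10B and TP53INP1 were not in it. The half-site was found in 7 of the 37 windows of these genes (18.9%), against 6.63% of all 35116 windows. Some genes have several windows, and by gene the shares were 28.0% and 8.06%. The genes were listed as known p53 targets, so these shares say nothing about mut against WT. The stretches around each match are shown 5′ to 3′ on the gene's strand, with the half-site in capitals, because they cover genes that rose, fell and did not pass the test.
DDB2: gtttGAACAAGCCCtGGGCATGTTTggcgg
AEN: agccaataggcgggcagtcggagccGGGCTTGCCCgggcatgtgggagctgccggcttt
PLK2: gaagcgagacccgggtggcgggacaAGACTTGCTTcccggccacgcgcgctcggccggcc
RPS27L: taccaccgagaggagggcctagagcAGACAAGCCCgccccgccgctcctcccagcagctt
FDXR: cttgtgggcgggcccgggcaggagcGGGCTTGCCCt
FAS: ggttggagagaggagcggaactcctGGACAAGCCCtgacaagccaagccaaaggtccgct
SESN1: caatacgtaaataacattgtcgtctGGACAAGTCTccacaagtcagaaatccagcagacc

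The DDB2 stretch (chr11:47214975-47215004, + strand) is the one member window with a pair of half-sites within 13 bases of each other, an arrangement found in 10 of all 35116 windows (0.028%). Its half-sites begin 6 and 17 bases into the transcript from that start site. The others lie upstream of an annotated start, which need not be the gene's main one: AEN by 34 bases (chr15:88621281-88621339, + strand), PLK2 by 132 (chr5:58460184-58460243, − strand), RPS27L by 59 (chr15:63157502-63157561, − strand), FDXR by 11 (chr17:74872995-74873030, − strand), FAS by 122 (chr10:88991284-88991343, + strand) and SESN1 by 49 (chr6:109009003-109009062, − strand). Of these 7 genes, AEN, DDB2, PLK2 and RPS27L were higher in mut, SESN1 was lower, and FDXR and FAS did not pass the test. Of the 17 tested genes whose windows had no match, 6 were higher and 0 were lower. Among the 5 genes without windows, 2 were higher and 1 was lower. Over all genes tested 13% were higher and 14.2% lower, and whether these small sets differ was not tested. A match is a run of letters and not a bound site, and known p53 elements of several of these genes lie outside windows of this length.

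In the mut cells 12 of the 29 tested p53 targets were higher and 2 were lower, while over all genes tested 13% were higher and 14.2% lower. The genes that rose span several p53 outputs: the cell cycle inhibitor CDKN1A, the death receptor TNFRSF10B, the nucleolar exonuclease AEN, the DNA damage sensor DDB2 and the quinone oxidoreductase TP53I3. The 2 that fell were RRM2B, a ribonucleotide reductase subunit, and SESN1, a sestrin. MDM2 and PPM1D, the genes of the main feedback inhibitors of p53, did not pass the test. The median log2 fold change of the 29 was 0.21, against −0.01 over all genes, and 24 of the 29 were above 0. Of all 14409 genes tested, 7024 were above 0. The rises were modest, from 1.13-fold for PMAIP1 to 1.62-fold for PHLDA3.

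**Figure D1:**
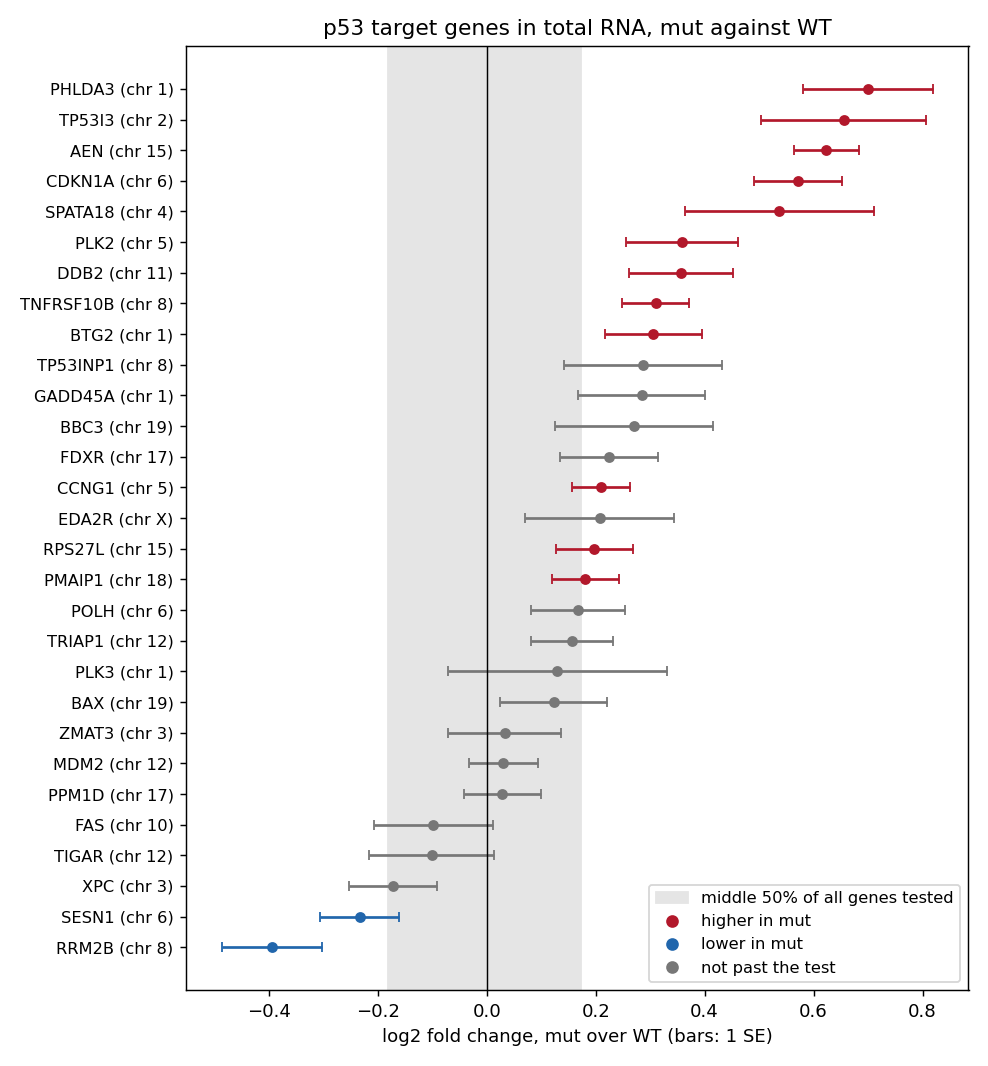
Log2 fold change of mut over WT (x axis) for the 29 tested p53 target genes with their chromosomes (y axis), with bars of 1 SE, coloured by the call. The 12 higher genes run from 0.18 (PMAIP1) to 0.70 (PHLDA3), and the grey band marks the middle 50% of all genes tested, from −0.18 to 0.17.

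The 3 mut libraries lay wholly above the 3 WT libraries in 17 of the 29 genes and wholly below in 3, whereas 19.4% of all genes lay above and 21.2% below. These 20 include 6 genes that did not pass the test, FDXR, GADD45A, POLH, TRIAP1, EDA2R and XPC. The size of change mattered for the count: a test against a 1.2-fold change called 4 members higher, CDKN1A, TP53I3, PHLDA3 and AEN, and 0 lower (3.21% and 3.1% of all genes). Without WT library 1 the counts were 7 and 1, against 9.03% and 9.88% of all genes, and BTG2, PLK2, SPATA18, PMAIP1, RPS27L and SESN1 were no longer called.

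Of the 5 genes that restrain the cell cycle, 3 rose and 0 fell, beside 13% and 14.2% of all genes tested. CDKN1A (ENSG00000124762.12, chr6:36676463-36687332), which encodes the cyclin-dependent kinase inhibitor p21, was at 68.3, 59.7 and 56.4 CPM in mut and 42.1, 43.3 and 38.2 CPM in WT. The lowest mut library was thus well above the highest WT library, and the log2 fold change was 0.57 (SE 0.08, edgeR adjusted p = 8.5e-06). BTG2 (chromosome 1), an antiproliferative partner of the deadenylase complex, was at 31.4, 30.9 and 28.0 CPM in mut and 22.9, 25.4 and 24.6 CPM in WT (0.31, SE 0.09, adjusted p = 0.011). PLK2 (chromosome 5), a polo-like kinase induced by stress, was at 20.9, 23.6 and 20.6 CPM against 15.3, 18.0 and 17.2 CPM (0.36, SE 0.10, adjusted p = 0.010). In both genes the groups did not overlap, although the gap between the nearest libraries was under 3 CPM. The BTG2 call was lost when WT library 1 was left out (adjusted p = 0.072), and that of PLK2 without mut library 2 or WT library 1 (0.058 and 0.072). GADD45A (chromosome 1), a growth arrest and damage response gene, was at 14.7, 14.1 and 15.5 CPM in mut and 11.2, 11.7 and 13.9 CPM in WT (0.28, SE 0.12, adjusted p = 0.071), also without overlap. It was called without WT library 3 (0.39, adjusted p = 0.034). PLK3 (chromosome 1), a related kinase, overlapped between the groups on 34 to 52 reads per library (0.13, SE 0.20, adjusted p = 0.67).

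Among the 3 genes that feed back on p53, CCNG1 alone passed, and over all genes tested 13% rose and 14.2% fell. Cyclin G1, which directs a phosphatase to MDM2, was the most highly counted member, and its gene (ENSG00000113328.17, chr5:163437571-163457640) was at 420, 428 and 408 CPM in mut and 373, 353 and 361 CPM in WT. All mut libraries lay above all WT libraries, by a log2 fold change of 0.21 (SE 0.05, adjusted p = 0.0047). MDM2 (ENSG00000135679.20, chr12:68808172-68850686) was at 202, 231 and 227 CPM in mut and 229, 204 and 214 CPM in WT. Its libraries were interleaved, with a difference of 0.03 (SE 0.06, adjusted p = 0.76) on 1738 to 2608 reads per library. PPM1D (chromosome 17), the phosphatase that turns the damage response off, was at 52.9, 56.1 and 57.1 CPM against 55.5, 54.6 and 52.6 CPM, likewise interleaved (0.03, SE 0.07, adjusted p = 0.80).

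Of the 10 genes that act in cell death, 4 rose and 0 fell, beside 13% and 14.2% of all genes tested. The 4 were 1 receptor, 1 nuclease, 1 inhibitor of AKT signalling and 1 BH3-only protein. AEN (ENSG00000181026.14, chr15:88604683-88632281), an apoptosis-enhancing nuclease, was at 206, 212 and 205 CPM in mut and 135, 140 and 128 CPM in WT. It had the smallest adjusted p of all members (log2 fold change 0.62, SE 0.06, adjusted p = 1.9e-08), and the groups were far apart beside their spread. PHLDA3 (ENSG00000174307.6, chr1:201464278-201469188), which competes with AKT for membrane lipids, was at 22.1, 19.4 and 19.8 CPM in mut and 9.93, 13.6 and 14.1 CPM in WT. It had the largest rise of the 29 (0.70, SE 0.12, adjusted p = 8.7e-05), with the first WT library lower than the other two. TNFRSF10B (ENSG00000120889.11, chr8:23020133-23069031), a receptor for the death ligand TRAIL, was at 173, 168 and 165 CPM in mut and 140, 139 and 128 CPM in WT (0.31, SE 0.06, adjusted p = 0.00042). The spread within each group was small beside this step. PMAIP1 (chromosome 18), which encodes the BH3-only protein NOXA, was at 166, 180 and 187 CPM against 155, 161 and 154 CPM (0.18, SE 0.06, adjusted p = 0.028). Its lowest mut library was only just above the highest WT library, and the call was lost when mut library 2 or 3 or WT library 1 or 3 was left out, with adjusted p of 0.073 to 0.105.

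The other 6 genes of this group did not pass the test. BBC3 (chromosome 19), which encodes the BH3-only protein PUMA, was at 13.6, 9.16 and 12.1 CPM in mut and 10.9, 9.87 and 7.99 CPM in WT, with overlap (0.27, SE 0.15, adjusted p = 0.17). Without mut library 2, its lowest mut library, the difference was 0.41 (adjusted p = 0.035). BAX (chromosome 19), the pore-forming effector, stood at 25.3 to 28.1 CPM in mut and 21.6 to 28.1 CPM in WT (0.12, SE 0.10, adjusted p = 0.38). FAS (chromosome 10), the receptor for the FAS ligand, overlapped at 16.7 to 21.4 and 17.9 to 21.1 CPM (−0.10, SE 0.11, adjusted p = 0.55). Whether FAS and TNFRSF10B differed in their response was not tested. TP53INP1 (chromosome 8), a nuclear cofactor of p53, was at 8.04, 11 and 10.8 CPM in mut and 9, 7.83 and 7.62 CPM in WT (0.29, SE 0.14, adjusted p = 0.15). Mut library 1 lay among the WT libraries, and without it the difference was 0.43 (adjusted p = 0.036). TRIAP1 (chromosome 12), an inhibitor of apoptosis that carries lipid in mitochondria, was at 48.8, 47.3 and 48.7 CPM against 46.0, 41.0 and 43.1 CPM (0.16, SE 0.08, adjusted p = 0.12). EDA2R (chromosome X), a receptor of the tumour necrosis factor family, was at 9.31 to 10.1 CPM in mut and 7.44 to 9.31 CPM in WT, apart by less than the rounding of these values (0.21, SE 0.14, adjusted p = 0.27).

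**Figure D2:**
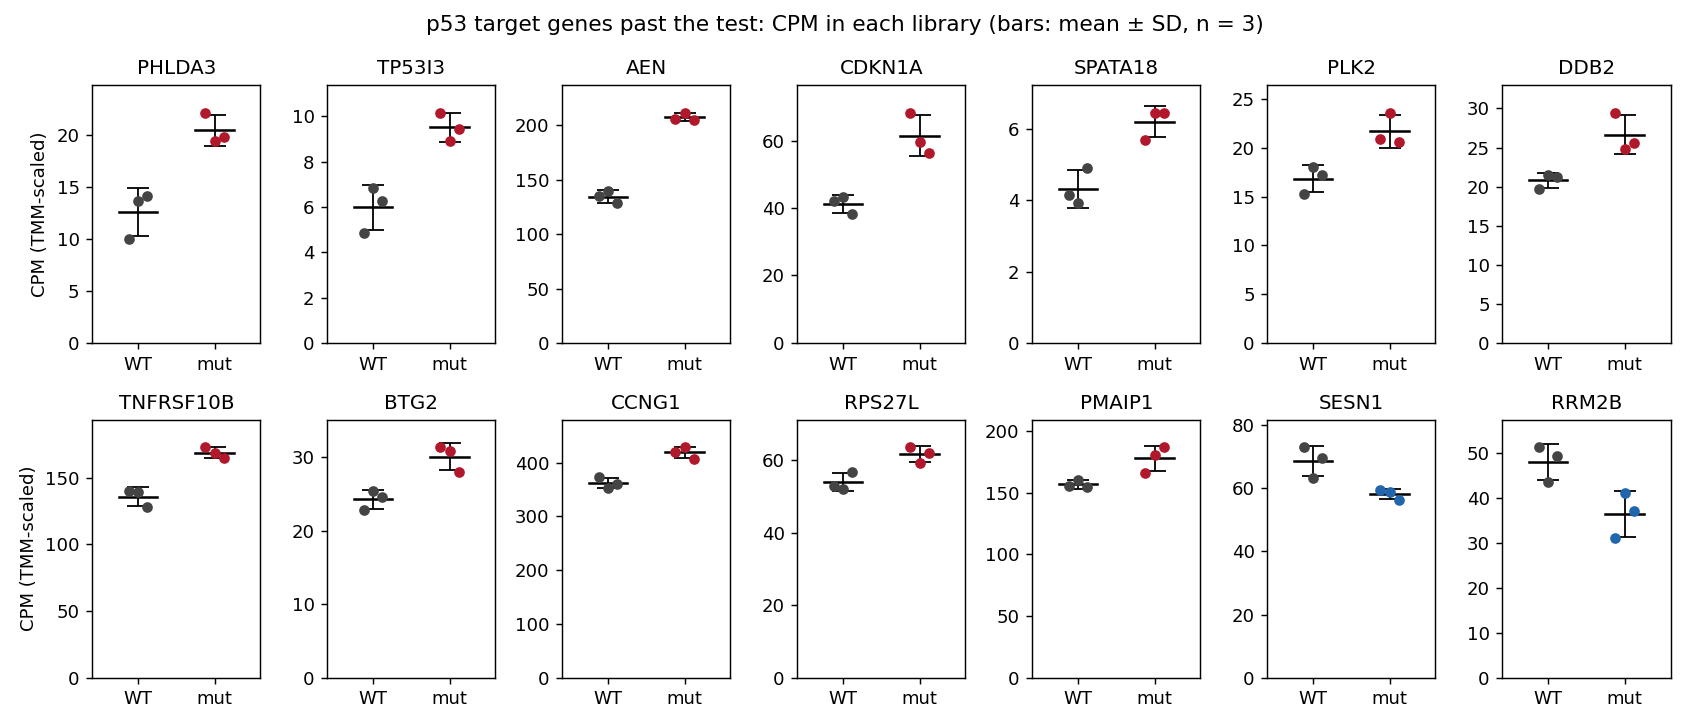
TMM-scaled CPM (y axis, from 0) in each of the 3 WT and 3 mut total RNA libraries for the 14 p53 target genes past the test, with the mean and SD as bars. The 12 higher genes come first, and in all 14 the WT and mut points do not overlap, from CCNG1 at 353 to 428 CPM down to SPATA18 at 3.92 to 6.46 CPM.

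Of the 4 genes of DNA repair and nucleotide supply, 1 was higher and 1 lower, beside 13% and 14.2% of all genes tested. DDB2 (ENSG00000134574.10, chr11:47214454-47239217), which recognises ultraviolet lesions for nucleotide excision repair, was at 29.5, 24.8 and 25.6 CPM in mut and 19.6, 21.5 and 21.3 CPM in WT (0.36, SE 0.10, adjusted p = 0.0063). XPC (chromosome 3), the other damage sensor of that pathway, was at 34.8, 31.4 and 31.3 CPM in mut and 35.8, 37.0 and 37.1 CPM in WT. All its mut libraries were below the WT libraries, but the difference did not pass the test (−0.17, SE 0.08, adjusted p = 0.12). RRM2B (ENSG00000048392.10, chr8:102204501-102238961), the p53-inducible subunit of ribonucleotide reductase, was at 31.0, 41.1 and 37.1 CPM in mut and 51.3, 43.5 and 49.3 CPM in WT. It fell by 0.39 on the log2 scale (SE 0.09, adjusted p = 0.0021), the largest fall among the members, and stayed called in all 6 fits that leave out 1 library. POLH (chromosome 6), a translesion DNA polymerase, was at 27.8, 28.7 and 31.7 CPM against 26, 26.2 and 26.3 CPM (0.17, SE 0.09, adjusted p = 0.16).

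Of the 5 genes of metabolism and mitochondria, 2 rose and 1 fell, beside 13% and 14.2% of all genes tested. TP53I3 (ENSG00000115129.12, chr2:24077433-24084834), a quinone oxidoreductase linked to reactive oxygen species, was at 10.2, 8.93 and 9.42 CPM in mut and 4.86, 6.81 and 6.27 CPM in WT (0.66, SE 0.15, adjusted p = 0.0020). SPATA18 (chromosome 4), which acts in the removal of damaged mitochondria, was at 5.69, 6.46 and 6.43 CPM in mut and 4.14, 3.92 and 4.91 CPM in WT. It rose by 0.54 (SE 0.17, adjusted p = 0.022) on 40 to 56 reads per library, and neither DESeq2 (adjusted p = 0.12) nor the fits without mut library 2 or 3 or WT library 1 or 2 (0.058 to 0.085) called it. SESN1 (ENSG00000080546.12, chr6:108984309-109094846), a stress-induced inhibitor of mTORC1, was at 59.4, 59.0 and 56.4 CPM in mut and 73.0, 63.4 and 69.5 CPM in WT (−0.23, SE 0.07, adjusted p = 0.018). Leaving out mut library 3, or the first or the third WT library, ended that call (adjusted p = 0.10, 0.12 and 0.089). FDXR (chromosome 17), the reductase that supplies electrons to mitochondrial ferredoxin, was at 28.7, 26.7 and 25.2 CPM against 23.1, 22.5 and 23.6 CPM (0.22, SE 0.09, adjusted p = 0.066), without overlap. It was called without mut library 3 (0.28, adjusted p = 0.047). TIGAR (chromosome 12), a phosphatase that lowers glycolytic flux, overlapped at 12.7 to 14.2 and 13.3 to 16.2 CPM (−0.10, SE 0.11, adjusted p = 0.55).

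The remaining pair of tested genes gave 1 rise, and over all genes tested 13% rose. RPS27L (chromosome 15), a ribosomal protein paralog, was at 63.5, 59.3 and 62.1 CPM in mut and 52.9, 52.1 and 56.6 CPM in WT (0.20, SE 0.07, adjusted p = 0.040). Reads with several alignments are not in the counts, so its level is uncertain where it resembles RPS27, and neither DESeq2 (adjusted p = 0.093) nor the fits without mut library 1 or 3 or WT library 1 or 2 (0.075 to 0.13) called it. ZMAT3 (chromosome 3), an RNA-binding zinc finger protein, was at 17.8 to 23 CPM in mut and 19.5 to 20.6 CPM in WT (0.03, SE 0.10, adjusted p = 0.85).

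Some members share their position with other genes, and the strand setting of the counting is not given in the sources used here. The span of TP53I3 lies wholly within that of FAM228B on the other strand, which had 42 reads over the mut and 50 over the WT libraries (−0.03, SE 0.31), against 249 and 185 for TP53I3. TP53INP1 lies wholly within NDUFAF6, SESN1 overlaps ARMC2 over 62.2% of its span, CCNG1 overlaps NUDCD2 over 55.4%, FAS overlaps ACTA2 over 51.5%, MDM2 overlaps the carboxypeptidase gene CPM over 20.0%, XPC overlaps XPC-AS1 over 11.6% and CDKN1A overlaps the lncRNA gene DINOL over 8.7%. If strand was not used in the counting, reads of such partners cannot be told apart. Ambiguous reads, which are left out of the counts, made up 8.6% to 9.86% of the mut and 6.9% to 8.28% of the WT libraries. Their part in the results for these members was not tested. The tested protein-coding partners of the called members did not pass the test, with NUDCD2 at −0.16 (adjusted p = 0.10) beside the rise of CCNG1 and ARMC2 at −0.27 (adjusted p = 0.38) beside the fall of SESN1.

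Earlier results of these data showed chromosome segments whose genes move together, so each member was set beside the 25 tested protein-coding genes on either side of it (46 genes in all for TIGAR, near the chromosome end). The 12 genes that rose fell into different surroundings. CDKN1A, TP53I3, DDB2, TNFRSF10B, CCNG1 and RPS27L had neighbours with medians between −0.05 and 0.08. This depended on the window, since with 10 genes on each side the median was −0.19 for CCNG1 and −0.09 for TP53I3. The rest then lay between −0.02 and 0.08. AEN, PHLDA3, BTG2, PMAIP1 and PLK2 lay among genes that were themselves shifted upward, with neighbour medians of 0.37, 0.32, 0.37, 0.25 and 0.22. SPATA18 lay among genes shifted the other way (−0.11), as did SESN1 (−0.15), MDM2 (−0.18), GADD45A (−0.16), ZMAT3 (−0.13) and EDA2R (−0.16). BAX, which was not called, had neighbours at 0.14. Of the 29 members, 6 had neighbour medians above 0.1 and 6 below −0.1. Of the 12 that rose, 5 had neighbour medians above 0.1. Among 12096 tested protein-coding genes 1647 had neighbour medians above 0.1 and 3000 below −0.1. Whether the members differ from these genes in their surroundings was not tested. Around AEN, on the distal part of chromosome 15, 33 of 50 neighbours were higher and 0 lower. Around PHLDA3 and BTG2 on chromosome 1, 27 and 31 of 50 were higher, around PMAIP1 on chromosome 18, 27 of 50, and around PLK2 on chromosome 5, 25 of 50. RRM2B had neighbours at −0.07, with 13 of 50 lower. Whether copy number differs between the lines was not tested.

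**Figure D3:**
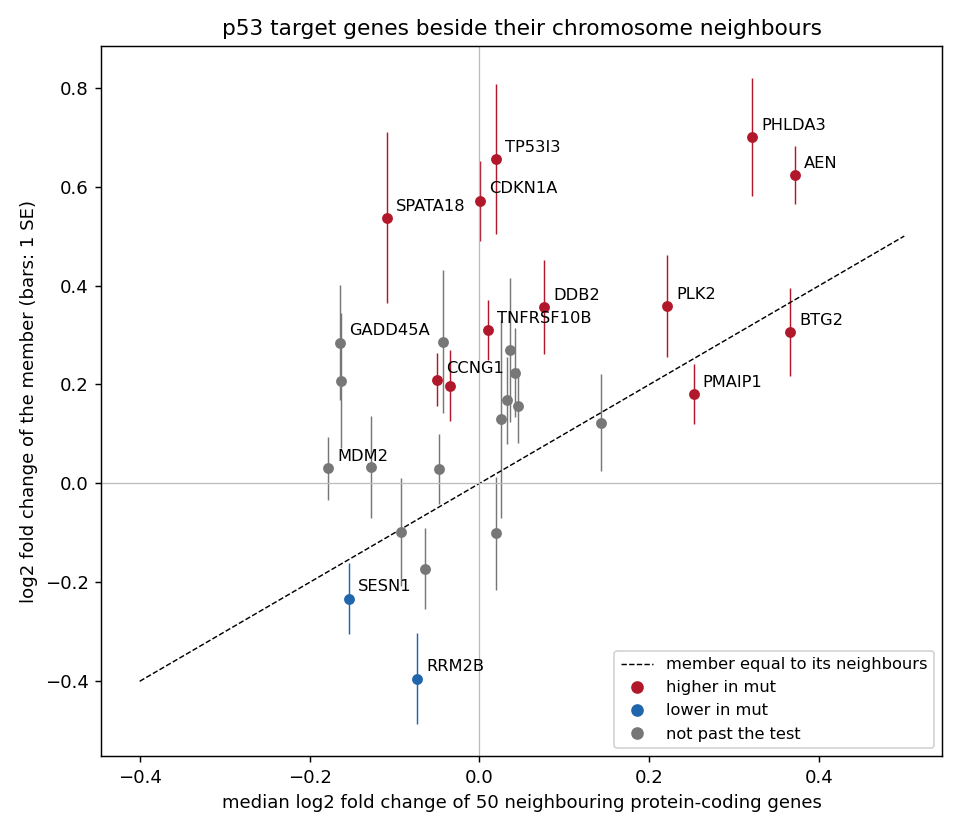
Log2 fold change of each tested p53 target gene (y axis, bars of 1 SE) against the median log2 fold change of its 50 neighbouring protein-coding genes (46 for TIGAR, x axis), coloured by the call, with the line of equal values dashed. CDKN1A, TP53I3 and TNFRSF10B stand near 0 on the x axis at 0.57, 0.66 and 0.31, whereas BTG2 and PMAIP1 lie below the line.

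With the neighbourhood's median removed from each library before the fit, 11 members were higher and 1 lower, against 11.2% and 10.9% of all genes, and 9 of the 12 rises remained. CDKN1A was then at 0.55 (adjusted p = 3.9e-06), TNFRSF10B at 0.30 (0.00024), TP53I3 at 0.65 (0.0028), CCNG1 at 0.26 (0.00055) and SPATA18 at 0.65 (0.0074). AEN and PHLDA3 remained called at smaller differences of 0.24 (0.0022) and 0.39 (0.019). BTG2, PLK2 and PMAIP1 were no longer called, at −0.063, 0.14 and −0.070, and neither was SESN1, at −0.07 (adjusted p = 0.46), while RRM2B stayed lower at −0.30 (0.0089). MDM2 was called higher at 0.21 (0.0043) and GADD45A at 0.42 (0.0087) on this scale, which sets each gene against its segment and is not its level in the cells. The members' median was 0.18, beside 0.21 in the fit without this step.

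The genes that control p53 were counted in the same way. Of 24 tested regulators 3 rose (12.5%, beside 13% of all genes) and 6 fell (25%, beside 14.2%), and their median was −0.04. The test against a 1.2-fold change called 0 higher and 1 lower, beside 3.21% and 3.1% of all genes. Leaving out WT library 3 gave 3 falls, in a fit where 8.63% of all genes were lower. MDM4, which binds and inhibits p53, was at 67.9, 75.5 and 73.7 CPM against 78.2, 76.0 and 75.8 CPM (−0.08, SE 0.07, adjusted p = 0.38). It lies among genes shifted upward, with a neighbour median of 0.32 and 32 of 50 neighbours higher, and was called lower once this was removed (−0.44, adjusted p = 7.1e-06). CDKN2A, whose ARF product restrains MDM2, was at 103, 83.3 and 87.4 CPM against 91.3, 104 and 89.9 CPM (−0.06, SE 0.08, adjusted p = 0.58). The falls with the smallest adjusted p were in the damage kinase gene ATM (−0.44, adjusted p = 3.3e-05), the p53 kinase gene HIPK2 (−0.40, 8.5e-05), the ubiquitin ligase gene RCHY1 (−0.38, 0.0031) and RPL11 (−0.20, 0.0053), whose protein can bind MDM2. ATM stood at 103, 121 and 110 CPM in mut and 155, 140 and 157 CPM in WT, so its groups were clearly apart. The rises were in the ubiquitin ligase gene COP1 (0.36, 0.00074), TP53BP2 (0.25, 0.0055) and the family member TP73 (0.34, 0.012). COP1 and TP53BP2 have neighbour medians of 0.20 and 0.30 and were not called once these were removed (adjusted p = 0.078 and 0.43), and RCHY1 moved to −0.25 (0.034). Without WT library 3, RPL11 and TP73 were not called (0.072 and 0.056). TP63 had 2 reads in mut and 1 in WT and was not tested.

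Among 56 further p53 targets, 48 were tested, of which 12 rose (25%, beside 13% of all genes) and 2 fell (4.17%, beside 14.2%), and the median was 0.12. The test against a 1.2-fold change called 5 higher and 0 lower, beside 3.21% and 3.1% of all genes. The smallest adjusted p among the rises belonged to the decoy TRAIL receptor gene TNFRSF10D (0.52, adjusted p = 6.7e-06), the signalling adaptor gene TRAF4 (0.52, 1.8e-05), the immediate early gene IER5 (0.48, 0.00010) and the matrix protein gene THBS1 (1.38, 0.00035). TNFRSF10D was at 115, 107 and 96.0 CPM in mut and 79.1, 71.1 and 70.8 CPM in WT. THBS1 was at 3.57, 3.76 and 2.99 CPM against 1.34, 1.02 and 1.72 CPM, a larger fold at a low level. The 2 that fell were PIGA on chromosome X (−0.30, 0.0094) and the decapping cofactor gene DCP1B (−0.35, 0.024). IER5 and PIGA have neighbour medians of 0.27 and −0.35 and were not called once these were removed (adjusted p = 0.071 and 0.81). Neither fall was called without mut library 3 (adjusted p = 0.12 for PIGA and 0.19 for DCP1B), and that of DCP1B was also lost without WT library 2 or 3 and in DESeq2 (0.11).

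Active p53 lowers many cell cycle genes through p21 and the DREAM repressor complex, so a list of such genes was set beside the targets. Whether this route acts in these HEK293 cells, which hold viral proteins, was not tested, so the list cannot show whether p53 was active. Of its 18 genes, 5 rose (27.8%, beside 13% of all genes) and 0 fell (beside 14.2%), and the median was 0.09. The test against a 1.2-fold change called 0 of the 18, beside 3.21% of all genes higher and 3.1% lower. The cyclin gene CCNB1 (0.39, adjusted p = 9.6e-06), the transcription factor genes MYBL2 (0.41, 0.00012) and E2F1 (0.35, 0.00034), the spindle midzone gene PRC1 (0.26, 0.0011) and the phosphatase gene CDC25A (0.24, 0.0029) were higher in the same mut libraries in which CDKN1A was higher. CDC25A was named after its value was seen, to complete the 5. CCNB1 was at 315, 302 and 298 CPM in mut and 232, 233 and 235 CPM in WT. It has a neighbour median of 0.22, with 26 of 50 neighbours higher and 0 lower, and its difference was 0.16 (adjusted p = 0.047) once this was removed. PRC1, which has a neighbour median of 0.32, was at −0.06 (adjusted p = 0.48) once this was removed.

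**Figure D4:**
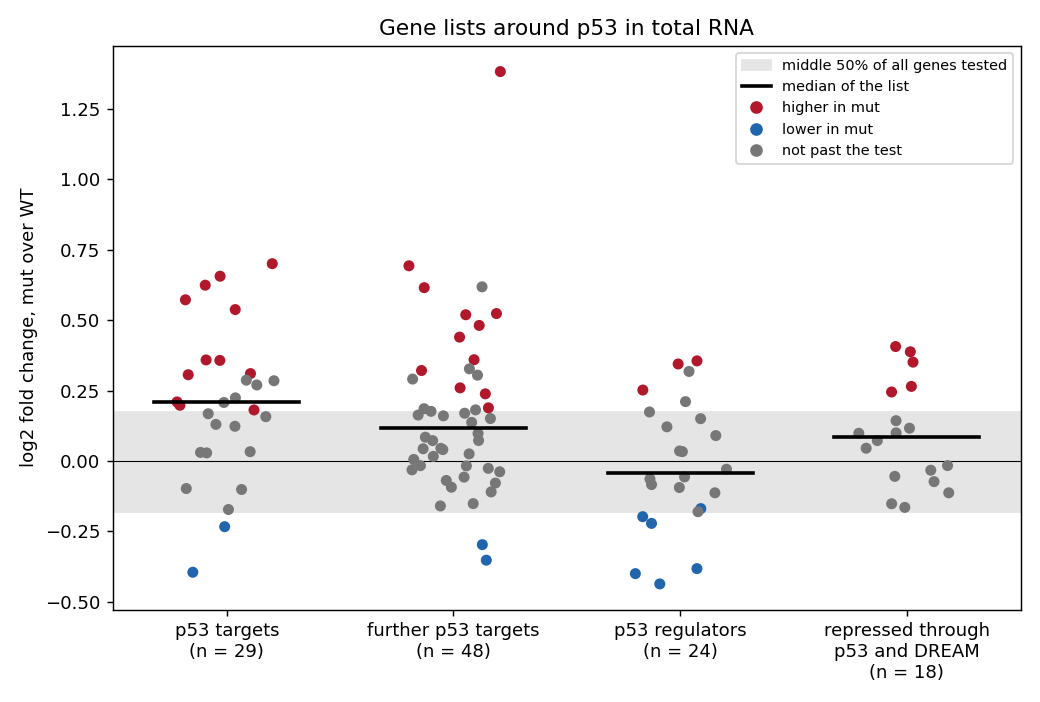
Log2 fold change of mut over WT (y axis) for the tested genes of 4 lists (x axis), 1 point per gene coloured by the call, spread sideways for visibility, with each list's median as a bar and the middle 50% of all genes tested in grey. The medians are 0.21 for the p53 targets, 0.12 for the further targets, −0.04 for the regulators and 0.09 for the genes repressed through p53 and DREAM.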

How the data were processed

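The authors deposited raw read counts per Ensembl gene for 6 total RNA libraries. The submitters' processing notes name STAR 2.4.0, HTSeq 0.6.1 and DESeq2 1.8.2, without roles, and hg38; the sources used here give neither the annotation version nor the strand setting. Rows without a gene (reads outside genes, ambiguous, or with several alignments) took 57.8% to 63.2% of reads and were left out. The small RNA libraries were not used here. Symbols matched 56321 of 60483 identifiers and RefSeq positions (GRCh38.p14) 39378. The counts were fitted over all genes in edgeR 4.0.16 (R 4.3.3, TMM, filterByExpr, quasi-likelihood F test, two-sided, Benjamini-Hochberg), tested on simulated data first. Each SE is the log2 fold change over the root of F. DESeq2 1.42.0 and the other alternatives are in the closing section. All 30 members are accounted for. Of the other lists, up to 4 called genes per direction of smallest adjusted p are named, and MDM4 and CDKN2A whatever their call; 1 gene that was to be named whatever its call is not reported here. Members, roles and lists were chosen with earlier results of these data known. No 2 replicates agreed within sampling noise (chi-square per degree of freedom 1.87 to 3.97).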

Additional observations from a re-analysis of the deposited data

How the results depend on the processing

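The main counts were 12 members higher and 2 lower, beside 13% and 14.2% of all genes. The test against a 1.2-fold change gave 4 and 0, beside 3.21% and 3.1% of all genes. Leaving out each library in turn gave 7 to 12 higher and 1 to 2 lower. Over all genes these fits called 9.03% to 12.4% higher and 8.63% to 14.3% lower. With the neighbour median removed 1 member was lower, as with the trend on gene span removed, which gave 10 higher and dropped PMAIP1, RPS27L and SESN1. The lower shares of all genes were 10.9% and 13.4%, and the higher share with the span trend removed was 14.2%. BTG2 and PMAIP1 turned to −0.063 and −0.070 with the neighbour median removed, neither called. RLE size factors, TMM over protein-coding genes, no filter and DESeq2 gave 10 to 13 higher and 2 lower. In the same order, the share of all genes called higher was 13.4%, 14.1%, 5.25% and 9.13%. The share called lower was 13.7%, 13%, 6.62% and 9.42%. Over all genes, 1867 were higher and 2049 lower, DESeq2 called 1315 and 1357, the 1.2-fold test 463 and 447, and without WT library 3 1274 were lower. The replicate block, which the labels' numbers allow, gave 10 higher and 2 lower, without PMAIP1 and RPS27L (adjusted p = 0.086 and 0.099). Of all genes, that fit called 11.6% higher and 12.8% lower. Same-numbered libraries did not deviate together (correlations −0.09, −0.07 and 0.03), and no library correlated best with its own number. These values show no pairing by number. The median of neighbour medians was 0.01, and −0.02 and 0.00 with 10 and 50 genes on each side. Members with few reads, such as PLK3 and SPATA18, limit what can be seen.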

Other observations

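The TRAIL receptor genes lie together on chromosome 8, and their values, looked at after the results were known, differed in level. TNFRSF10B and the decoy receptor gene TNFRSF10D were both higher in mut, by 0.31 (SE 0.06) and 0.52 (SE 0.07) on the log2 scale, in 3 of 3 mut libraries each. The other decoy receptor gene, TNFRSF10C, had 54 reads in mut and 50 in WT (0.33, SE 0.32, edgeR adjusted p = 0.49), and TNFRSF10A had 0 and 1. The neighbours of TNFRSF10B and TNFRSF10D had medians of 0.01 and 0.02.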
